A study of Mus musculus with 12 samples.

Results

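The 10 genes described here are the IL-6 family cytokines Lif, Il6 and Cntf, their receptor subunits Il6ra, Il6st, Lifr, Osmr and Cntfr, the transcription factor Stat3 and its feedback inhibitor Socs3. They were chosen by symbol from the 49315 genes of the count table, all 10 were found, and 9 had enough reads to be tested for a genotype difference. Bulk RNA sequencing measured their expression in dorsal root ganglia (DRG), with about 8 ganglia pooled from each of 12 mice killed at 10 months of age and 1 library per mouse. The 6 Nf2 mice were Nf2 flox/flox;Postn-Cre+ and the 6 DKO mice were Nf2 flox/flox;Fak1 flox/flox;Postn-Cre+, so that loss of Nf2 was common to both genotypes and the comparison asked what the added loss of Fak (Ptk2) changed. Each genotype held 3 mice labelled male and 3 labelled female. The Periostin promoter drives Cre in Schwann cells and their precursors, whereas the sequenced tissue also held neurons, satellite glia, fibroblasts and immune cells. Mice without Nf2 loss were not analysed here.

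Cytokines of the IL-6 family are released by injured neurons, Schwann cells and immune cells and signal through receptor complexes built around gp130, the product of Il6st. Ligand binding activates JAK kinases, which phosphorylate STAT3, and phosphorylated STAT3 enters the nucleus and induces its target genes, among them Socs3, whose product binds gp130 and JAKs and ends the signal. In peripheral nerve the pathway is known for its part in neuronal survival and in the response to axon injury. STAT3 activity itself is set by phosphorylation, which RNA counts do not measure.

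None of the 9 tested genes differed between DKO and Nf2 mice after adjustment over all 18295 genes tested (edgeR quasi-likelihood test, Benjamini-Hochberg, 0 of 9 at an adjusted p under 0.05, against 0.940% of all genes). Socs3 was the member with the smallest p, at a fold change of 0.776 (95% interval 0.632 to 0.954), followed by Osmr at 0.848 (0.727 to 0.989). Stat3 and Il6st, the hub genes of the pathway, had fold changes of 1.02 (0.899 to 1.15) and 0.956 (0.773 to 1.18). Il6 itself was close to the limit of detection in every mouse of both genotypes.

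The libraries held 21129191 to 41250329 counts, so that 1 CPM (the count divided by the library total and scaled to a total of 1000000) stood for 21.1 to 41.3 counts. Nf2 was targeted in both genotypes, so its level could not serve to tell them apart. Ptk2, targeted in DKO mice alone, did not separate the genotypes in whole ganglia. Ptk2 had 65.8 to 75.5 CPM in Nf2 mice and 46.5 to 76.0 CPM in DKO mice, and counts per gene do not show whether the floxed exons were lost. Mouse 702, an Nf2 mouse labelled male, had 496 CPM of Xist and 0.525 CPM of Ddx3y, which goes against its label, and the labels were kept as given. DKO mouse 887 and Nf2 mouse 649 had the highest shares of counts from the mitochondrial genome, 5.60% and 4.45%, against 1.99% to 3.15% in the other 10 mice. Summed over all markers of a list, sensory neuron genes had 5864 to 8190 CPM in Nf2 and 6066 to 7380 CPM in DKO mice, and myelinating Schwann cell genes had 7962 to 10835 and 7642 to 11124 CPM, which matches the labelled tissue. Muscle and blood RNA was also present. The 10 skeletal muscle markers together ranged from 52.1 to 1176 CPM in Nf2 and from 64.8 to 395 CPM in DKO mice, with medians of 726 and 137.5 CPM. In edgeR all 10 were lower in DKO mice, with a median log2 difference of -2.2. Of them 8 had an unadjusted p under 0.05 (14.9% of all genes), and 0 passed (0.940% of all genes). Pvalb, 1 of the 10, had 38.8 to 80.9 CPM in Nf2 and 41.2 to 60.8 CPM in DKO mice. Most of the lowest sums rested on Pvalb. The 12 macrophage markers had 237 to 350 CPM in Nf2 and 200 to 260 CPM in DKO mice. In edgeR, 1 of the 12 passed (0.940% of all genes), C1qb, a complement subunit made by macrophages (log2 difference -0.71, adjusted p = 0.0138), and 8 of 12 had an unadjusted p under 0.05 (14.9% of all genes). DESeq2 called C1qb, Csf1r, C1qc and Cx3cr1 (4.54% of all genes), and limma voom called C1qb and Csf1r (2.85% of all genes). The fitted log2 difference was below 0 for all 12 with a median of -0.40, although for Mrc1 it was -0.0073 and its mean CPM was 18.2 in DKO against 18.04 in Nf2 mice.

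Levels between genes were compared as CPM per kilobase of exon, the unit used in this paragraph, with exon lengths from GENCODE M21. Il6st, which encodes the shared signalling subunit gp130, had a level of 56.7 ± 10.2 (SD, n = 12 mice), the highest of the 9 members other than Cntf. Lifr, the receptor chain for LIF that also takes part in CNTF and oncostatin M complexes, followed with 35.9 ± 3.55, and Stat3 with 31.9 ± 3.13. Cntfr, the CNTF-binding chain that lacks a signalling domain of its own, had 23.0 ± 2.88, and its ligand gene Cntf had 22.1 ± 3.95. Cntfr was above Cntf in 6 of 12 mice. The place of Cntf in the order is uncertain, because 847 of its 1073 exonic bases are shared with exons of Zfp91 and its level would be higher if reads there were not counted. Socs3 (8.20 ± 1.64) and Osmr, the oncostatin M receptor (6.95 ± 0.967), were also close, with Socs3 above Osmr in 8 of 12 mice. Il6ra, the IL-6-binding receptor chain, was at 1.44 ± 0.270, Lif at 0.412 ± 0.0896 and Il6 at 0.0828 ± 0.0506. Among all genes with reads, Il6st lay at percentile 97.9 and Il6 at percentile 33.9. The ganglia thus held far more transcript for the shared chain than for the IL-6-specific chain, and the ratio of Il6st to Il6ra was 42.3 ± 9.54 in Nf2 and 38.4 ± 8.65 in DKO mice (SD, n = 6 each).

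**Figure D1:**
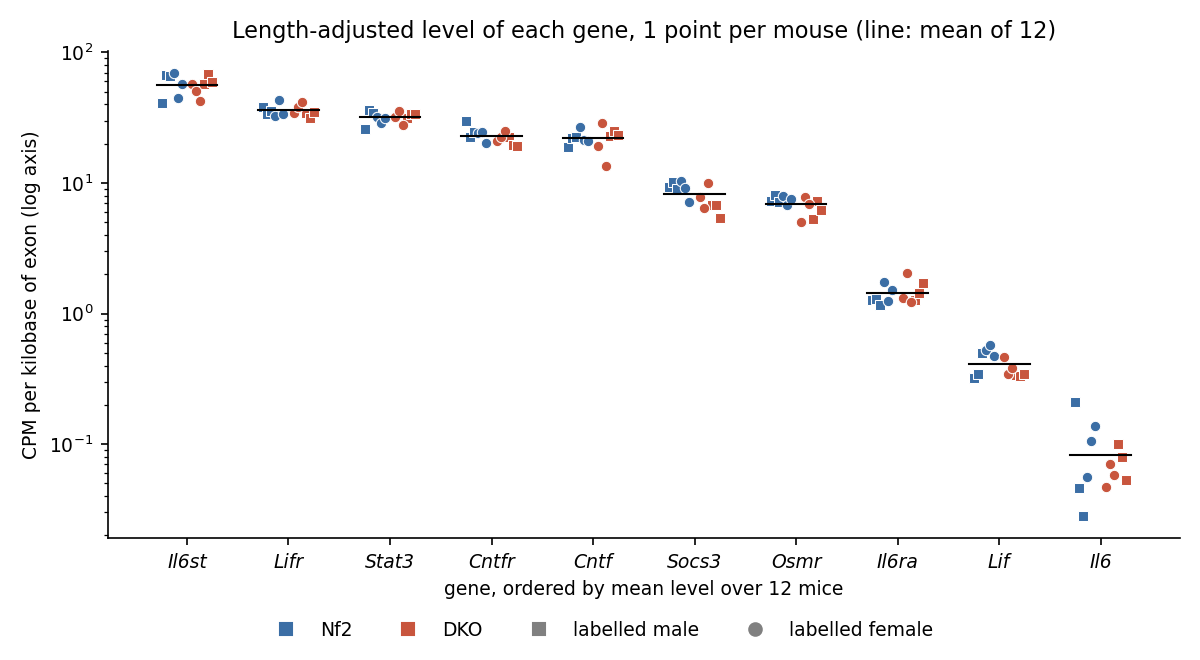
The y axis gives CPM per kilobase of exon on a log axis for each of the 10 genes on the x axis, with 1 point per mouse (blue Nf2, red DKO, squares labelled male, circles labelled female) and a line at the mean of 12 mice. Means ran from 56.7 for Il6st to 0.0828 for Il6, and the points of the genotypes lie over each other for every gene.

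Among the ligands, Il6 (chr5:30013114-30019981, GRCm38, plus strand), the founding cytokine of the family, was covered by very few reads. Nf2 mice had 12 (mouse 649), 3 (702), 2 (884), 4 (918), 7 (1048) and 9 (1049) counts, and DKO mice had 3 (885), 4 (886), 3 (887), 10 (914), 5 (915) and 3 (917). In counts the highest values were in Nf2 mouse 649 and DKO mouse 914, which had the deepest library (41250329 counts). By CPM, Nf2 mice 649 (0.511), 1049 (0.336) and 1048 (0.257) were above every DKO mouse, of which 914 was highest (0.242). The lowest was Nf2 mouse 884 (0.0683 CPM), so the ranges of the genotypes overlapped. Over all 6 mice of a genotype the 37 counts in Nf2 and 28 in DKO corresponded to 0.227 CPM (95% exact Poisson interval 0.160 to 0.313) and 0.174 CPM (0.115 to 0.251), intervals that cover counting error only. On the log2(CPM + 4) scale, which compresses differences of such low genes, the means were 2.08 ± 0.0563 and 2.06 ± 0.0164 (SD, n = 6 each), and the difference of -0.02 was within the spread between mice (exact two-sided permutation test, p = 0.379, smallest possible p = 0.00216). With a pseudocount of 0.5 in place of 4 the difference was -0.12 (exact permutation p = 0.407), and edgeR without the count filter fitted a log2 difference of -0.47 (unadjusted p = 0.338), so its size depended on the scale. A difference in Il6 was not detectable at this depth.

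Lif, a cytokine that Schwann cells and neurons make after nerve injury, had 33 to 68 counts per mouse in Nf2 and 35 to 61 in DKO. Its CPM was 1.41 at the lowest, 2.12 at the median and 2.49 at the highest in Nf2 mice, and 1.43, 1.501 and 2.01 in DKO mice. Of the Nf2 mice 4 were above all DKO mice, whereas Nf2 mouse 649 was the lowest of all 12, so the genotypes overlapped. Those 4 mice (884, 918, 1048 and 1049) also had the most skeletal muscle RNA. Their summed muscle markers had 724 to 1176 CPM, against 52.1 to 395 CPM in all other mice. The part of muscle RNA in the Lif level was not tested. The log2 difference was -0.34 ± 0.17 (SE), with an interval of -0.71 to 0.04 and an adjusted p of 0.390 in edgeR.

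Cntf, a cytokine stored in myelinating Schwann cells, had a lowest, median and highest CPM of 20.1, 23.3 and 28.7 in Nf2 mice and of 14.4, 24.8 and 30.7 in DKO mice. DKO mice held both the lowest value (mouse 887) and the highest (mouse 886), and the log2 difference was -0.02 ± 0.14 (SE). Zfp91, the neighbour on the same strand whose exons Cntf shares, had 191 to 248 CPM over the 12 mice. How reads in shared exons were assigned is not given in the sources used here, so the Cntf counts are uncertain.

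The binding and signalling chains of the receptors were next compared. Il6ra had a lowest, median and highest CPM of 10.1, 11.1 and 15.0 in Nf2 mice and of 10.6, 11.8 and 17.8 in DKO mice, with the top value in DKO mouse 886. Il6st (chr13:112464070-112510086, plus strand) had 453, 680 and 773 CPM in Nf2 mice and 471, 633 and 756 CPM in DKO mice. Lifr had 351, 372 and 463 CPM in Nf2 mice and 340, 373 and 447 CPM in DKO mice. For each of these 3 chains the range of one genotype lay almost wholly over that of the other. The log2 differences were 0.11 ± 0.14 for Il6ra, -0.06 ± 0.14 for Il6st and -0.03 ± 0.09 for Lifr (SE, n = 6 each), and the adjusted p in edgeR was 0.778, 0.876 and 0.912. The intervals ran from -0.20 to 0.41, from -0.37 to 0.24 and from -0.22 to 0.16, which bounds how far these genes could differ but does not show them to be equal.

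Osmr (chr15:6813577-6874969, minus strand) encodes the receptor chain for oncostatin M, which also pairs with Il31ra to form the IL-31 receptor of itch-sensing neurons. Nf2 mice had 88.0 (mouse 649), 98.1 (702), 87.3 (884), 95.5 (918), 82.8 (1048) and 91.1 (1049) CPM of Osmr. DKO mice had 61.1 (885), 94.4 (886), 83.7 (887), 64.6 (914), 87.9 (915) and 75.1 (917) CPM. The 3 lowest values were in DKO mice 885, 914 and 917, while DKO mice 886, 887 and 915 lay within the Nf2 range. The log2 difference was -0.24 ± 0.10 (SE), with an unadjusted p of 0.0375 and an adjusted p of 0.296 in edgeR. In bulk tissue fewer cells of a type and less RNA per cell cannot be told apart.

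Cntfr had a lowest, median and highest CPM of 56.3, 67.8 and 82.4 in Nf2 mice and of 53.7, 60.3 and 69.1 in DKO mice. Its log2 difference was -0.19 ± 0.10 (SE), with an adjusted p of 0.386 in edgeR. The highest values of the genotypes were in mice 649 and 887, the animals with the highest mitochondrial shares.

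**Figure D2:**
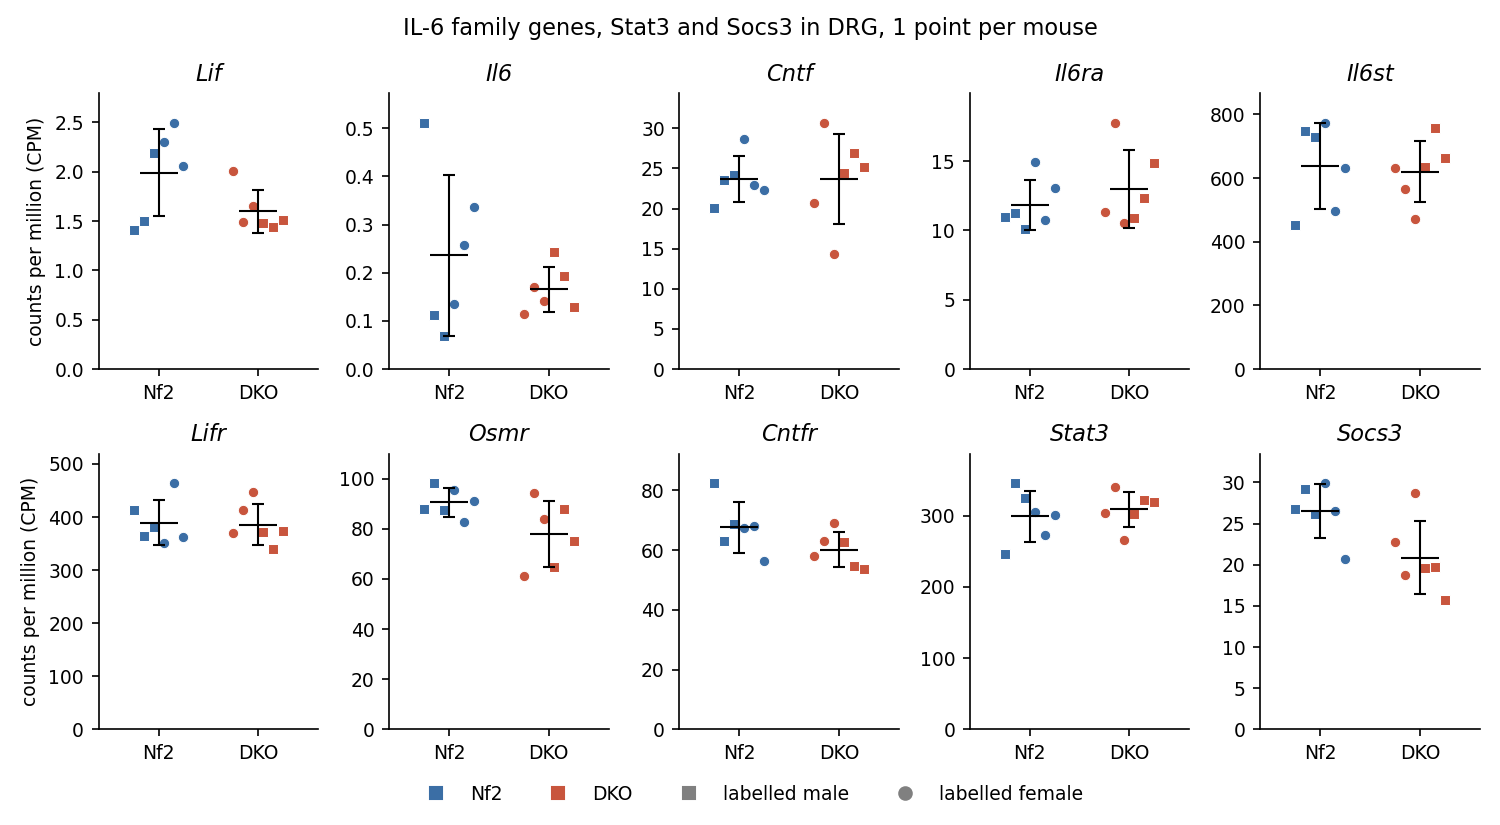
Each panel gives the CPM of 1 gene on a y axis that starts at 0, with 1 point per mouse (squares labelled male, circles labelled female) and the mean ± SD of 6 mice in black. The genotypes overlapped for all 10 genes, and the lowest Socs3 value was 15.7 CPM in DKO against 20.7 CPM in Nf2 mice.

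Stat3 (chr11:100885098-100939540, minus strand) encodes the transcription factor that the family's receptors activate. Nf2 mice had a lowest, median and highest Stat3 level of 246, 303 and 345 CPM, and DKO mice of 266, 311 and 340 CPM. The DKO range fell within the Nf2 range. The log2 difference was 0.03 ± 0.08 (SE) with an interval of -0.15 to 0.21, the narrowest of the 9 tested genes, and the adjusted p was 0.921 in edgeR.

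Socs3 (chr11:117966079-117970047, minus strand) is the classical feedback gene of STAT3. Promoter windows of the members were searched for the palindrome that STAT factors bind, and only a Socs3 window held it. The pattern TTCNNNGAA, which reads the same on both strands, was searched in RefSeq windows from 250 bases before to 50 bases after each annotated start on GRCm38.p6. All 10 genes had a window, and 1 of their 16 windows held the pattern, against 2722 of the 32817 windows of all genes (8.29%). The member count is near the share over all genes and is no result about the members. The Socs3 match lay 154 to 146 bases before the RefSeq start. That start and the match both lie inside the GENCODE bounds of the gene given above. The match is in the stretch chr11:117969502-117969530 printed here 5′ to 3′ on the minus strand, in capitals.

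Socs3: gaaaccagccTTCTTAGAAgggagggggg

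The letters are a description of the window and no measurement of binding.

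Nf2 mice had 26.8 (mouse 649), 29.3 (702), 26.1 (884), 29.9 (918), 26.5 (1048) and 20.7 (1049) CPM of Socs3. DKO mice had 22.8 (885), 18.7 (886), 28.7 (887), 19.6 (914), 19.8 (915) and 15.7 (917) CPM. All DKO mice but 887 were below every Nf2 mouse but 1049, and these 2 animals made the genotypes overlap. The mean was 20.9 ± 4.45 CPM in DKO against 26.5 ± 3.27 CPM in Nf2 mice (SD, n = 6 each). The log2 difference was -0.37 ± 0.14 (SE) with an interval of -0.66 to -0.07, an unadjusted p of 0.0197 and an adjusted p of 0.223 in edgeR. This p ranked 1614 of 18295 genes, and no gene called in the comparison had an unadjusted p above 0.000469. Without mouse 887, which combined the highest Socs3 level of its genotype with the highest mitochondrial share, the log2 difference was -0.49 and the adjusted p 0.0547. This was the smallest adjusted p of the 12 edgeR fits that left out 1 mouse each. The largest was 0.394, without mouse 917, which had the lowest Socs3 level, and the log2 difference was then -0.29. The median log2 difference of the macrophage markers was -0.40, as given above, and their part in the Socs3 levels was not tested. Stat3 stood at 3.46 ± 0.586 times Socs3 in Nf2 and at 4.69 ± 1.17 times in DKO mice (ratio of CPM per kilobase, SD, n = 6 each).

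Read as a group, 2 of 9 members had an unadjusted p under 0.05, Osmr and Socs3, against 14.9% of all genes tested. The log2 difference was below 0 for 7 of 9 members, against 49.0% of all genes, and the median was -0.06 against 0.00 over all genes tested. Of these 7, Cntf (-0.02), Lifr (-0.03) and Il6st (-0.06) lay close to 0 and each changed sign in at least 1 alternative fit. Members also varied together across mice, so the count does not show a shift of the family. For none of the 10 members did the CPM ranges of the genotypes stay apart, against 1.95% of all genes. DESeq2 called 0 of 9 members (4.54% of all genes), with 2 of 9 at an unadjusted p under 0.05. Limma voom with quality weights also called 0 of 9 (2.85% of all genes), with 3 of 9 at an unadjusted p under 0.05. Leaving out mice 649 and 887 together, which was chosen after the data were seen, again gave 0 of 9 called (1.71% of all genes), with 4 of 9 at an unadjusted p under 0.05 and Socs3 at an adjusted p of 0.0657 in edgeR.

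**Figure D3:**
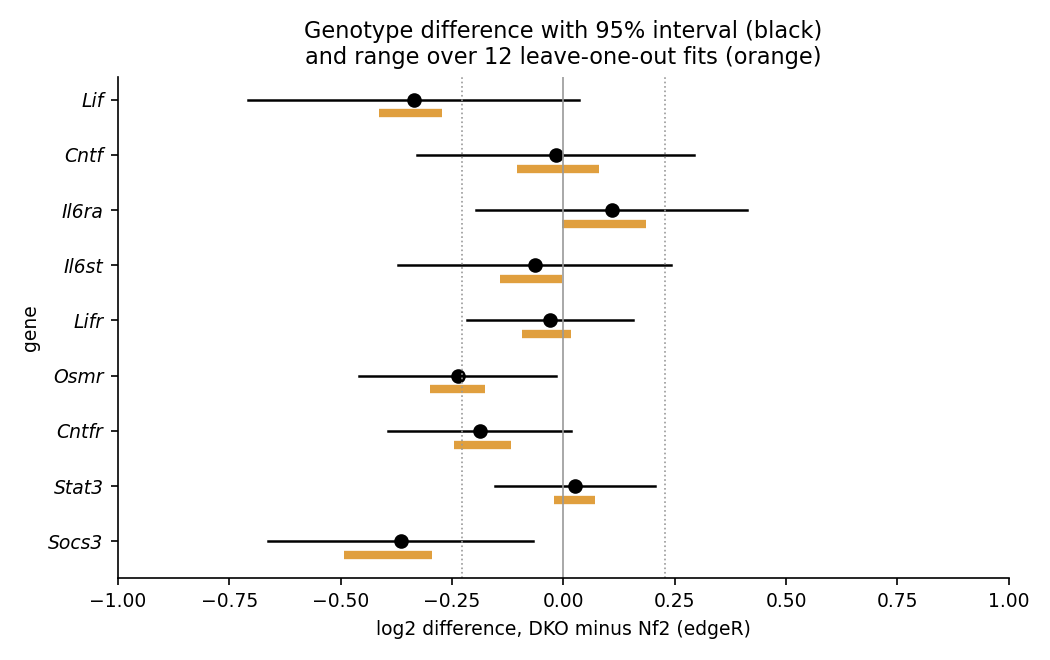
The x axis gives the log2 difference of DKO minus Nf2 from edgeR for the 9 tested genes on the y axis, with its 95% interval in black and, in orange, its range when each of 12 mice was left out in turn. Dotted lines mark the smallest difference of any called gene, 0.23, and the intervals of Osmr and Socs3 alone lie below 0.

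By labelled sex, 0 of 9 members differed in edgeR (0.0164% of all genes were called), and 0 of 9 had an unadjusted p under 0.05 (2.91% of all genes). DESeq2 also called 0 of 9. Lif came nearest, with a log2 difference of male minus female of -0.32 ± 0.16 (SE, unadjusted p = 0.0570, adjusted p = 0.9999 in edgeR). Nor did the genotype difference depend detectably on labelled sex, with 0 of 9 members called for the interaction in edgeR or DESeq2 (0.0109% of all genes in edgeR) and 0 of 9 at an unadjusted p under 0.05 in edgeR (4.78% of all genes). Socs3 and Cntfr had the smallest interaction p of the 9, 0.0729 and 0.0651. Labelled males had 26.1 to 29.3 CPM of Socs3 in Nf2 and 15.7 to 19.8 CPM in DKO mice, and labelled females had 20.7 to 29.9 and 18.7 to 28.7 CPM. The genotypes did not overlap for 3 of 10 members in labelled males, Cntf, Cntfr and Socs3 (19.1% of all genes), and for 1 of 10 in labelled females, Lif (13.4% of all genes). The Socs3 interaction was -0.49 ± 0.25 on the log2 scale, with an interval of -1.04 to 0.05 and an adjusted p of 0.920 in edgeR, so a difference between the sexes was not shown. Mouse 702, whose Xist and Ddx3y levels go against its label, is among the labelled males of the Nf2 group, which limits these fits. Without it, edgeR again called 0 of 9 members for labelled sex and for the interaction. Cntfr then had an unadjusted interaction p under 0.05 (log2 -0.44), as it also did without mouse 914 or 885. So did Socs3 without mouse 918 or 886, and Cntf without mouse 886.

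Across the 12 mice some members varied together and others in opposite directions. Pearson's r of log2 CPM was 0.788 for Il6st with Stat3, 0.745 for Cntfr with Socs3 and -0.846 for Il6st with Lifr, and 0.597, 0.779 and -0.776 in the 10 mice without 649 and 887. These pairs were picked for the largest absolute r over 12 mice among all pairs of the 9 tested members. Stat3 with its feedback gene Socs3 had an r of -0.244, and of 0.0556 in the 10 mice. Il6st and Stat3 were lowest in the same 3 mice and in the same order, 649, 887 and 1048. Mouse 649 had 453 CPM of Il6st and 246 CPM of Stat3, mouse 887 had 471 and 266 CPM, and mouse 1048 had 497 and 272 CPM. Lifr ran the other way, with its highest values in mice 1048 (463 CPM) and 887 (447 CPM), although it acts in the same complexes as Il6st. These 3 mice also had the highest mitochondrial shares (4.45%, 5.60% and 3.15%). Summed erythroid markers were lowest in the same animals (33.9, 55.8 and 120 CPM, against 159 to 710 CPM in the other 9), and so were summed fibroblast markers (at most 943 CPM, against 1048 to 1264 CPM). Their part in the levels of Il6st, Stat3 and Lifr was not tested. Because 649 and 1048 are Nf2 mice and 887 is a DKO mouse, the pattern cuts across the genotypes.

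**Figure D4:**
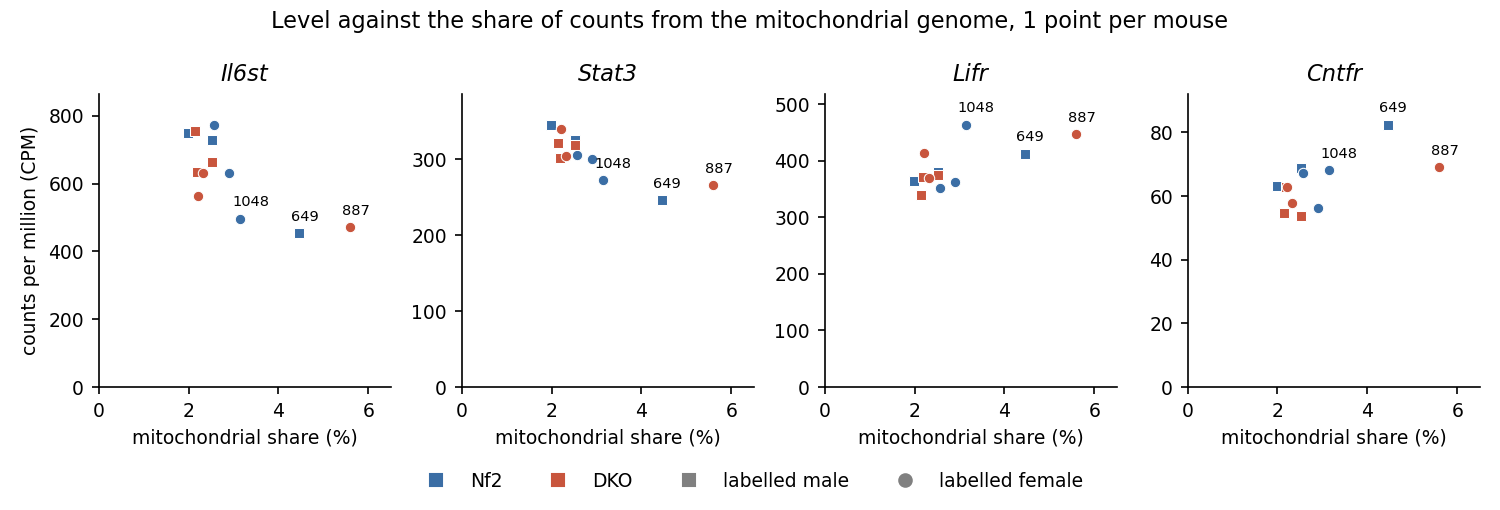
The x axis gives the share of counts from the mitochondrial genome in percent and the y axis the CPM of Il6st, Stat3, Lifr and Cntfr, with 1 point per mouse (blue Nf2, red DKO). Mice 649, 887 and 1048 are marked, and they hold the 3 lowest Il6st and Stat3 values.

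The genes whose levels followed a member most closely were found by Pearson's r of log2 CPM over the 12 mice among 14190 genes, as a description of mice that share their library quality and tissue make-up. For Il6st this was Spty2d1 (r = 0.990), for Stat3 Tollip (r = 0.969), for Cntf Gdap10 (r = 0.957) and for Lifr Zfp423 (r = 0.948). Likeness was weaker for Osmr (Cry1, r = 0.935), Cntfr (Uba2, r = 0.932), Lif (Tatdn1, r = 0.924) and Il6ra (Acta2, r = 0.915), and weakest for Socs3 (Ddost, r = 0.882). In the 10 mice without 649 and 887 the same pairs had r of 0.868 (Cntfr with Uba2) to 0.993 (Il6st with Spty2d1). These 10 mice are among the 12 used to pick the pairs, so this is no independent check. Taking the highest r of 14190 genes itself favours high values.

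The rest of the pathway was covered by 61 genes in 6 lists, of which 55 were tested. None passed in edgeR (0.940% of all genes did), 9 of 55 had an unadjusted p under 0.05 (14.9% of all genes), and 39 of 55 had a log2 difference below 0 (49.0% of all genes). DESeq2 called 4 of them, Gfap, Cebpd, Serpina3n and Ccl2 (4.54% of all genes), and limma voom called 2, Gfap and Serpina3n (2.85% of all genes).

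Among 9 further gp130 ligands, 5 were tested, 3 were higher and 2 lower in DKO mice, and 0 had an unadjusted p under 0.05 (median log2 difference 0.19). Clcf1, a second ligand of the CNTF receptor, had 5.27 ± 0.823 CPM in Nf2 and 6.43 ± 0.943 CPM in DKO mice (SD, n = 6 each, adjusted p = 0.358 in edgeR), and the cardiotrophin gene Ctf1 had 2.40 ± 0.876 and 1.87 ± 0.474 CPM. Oncostatin M (Osm), the ligand of Osmr, had too few reads to be tested, with 62 counts over all Nf2 and 43 over all DKO mice. Il31 had no read in any mouse.

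Of the 5 other receptors and receptor-cleaving proteases, 1 was higher and 4 were lower in DKO mice (median -0.11). Il31ra, the IL-31-binding partner of Osmr, had 19.7 to 27.6 CPM in Nf2 and 3.07 to 20.6 CPM in DKO mice, with a log2 difference of -0.70 ± 0.30 (SE, unadjusted p = 0.0366, adjusted p = 0.293 in edgeR). Its lowest value was in DKO mouse 885, which also had the lowest Osmr level of all mice. The second smallest p of the list belonged to Il27ra, the IL-27 receptor chain (log2 difference 0.35 ± 0.19).

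The 6 JAK and other STAT genes had a median of -0.04, with 2 higher and 4 lower and 0 at an unadjusted p under 0.05. Stat5b (log2 difference -0.09 ± 0.05) and Stat5a (-0.16 ± 0.10), transcription factors of neighbouring cytokine pathways, had the smallest p of the list. Jak1, the main kinase bound to gp130, had 367 ± 53.6 CPM in Nf2 and 379 ± 45.2 CPM in DKO mice. The 8 other feedback genes and inhibitors were 2 higher and 6 lower (median -0.03), with 0 at an unadjusted p under 0.05. Cish (0.22 ± 0.12), a SOCS family gene, and Ptpn6 (-0.17 ± 0.16), a phosphatase of blood cells, had the smallest p there.

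Of the 23 STAT3 target genes, 18 were lower and 5 higher in DKO mice (49.0% of all genes were lower), with a median log2 difference of -0.16. Of them 7 of 23 had an unadjusted p under 0.05 (14.9% of all genes), Ccl2, Cebpd, Serpina3n, Junb and Bcl3 with lower and Gfap and Lbp with higher values in DKO mice. The macrophage markers had a median log2 difference of -0.40 with 8 of 12 at that p, and their part in the levels of these genes was not tested. These genes answer to other signals too, and no test of the list as a whole was made. Ccl2, the monocyte-attracting chemokine, had 5.71 to 9.90 CPM in Nf2 and 1.58 to 5.58 CPM in DKO mice, without overlap (1.95% of all genes). Its log2 difference was -0.76 ± 0.24, with an adjusted p of 0.146 in edgeR, 0.0420 in DESeq2 and 0.105 in limma voom. Cebpd, a transcription factor of the acute-phase response, had 54.1 to 104 CPM in Nf2 and 33.7 to 67.9 CPM in DKO mice. The log2 difference was -0.64 ± 0.18, with an adjusted p of 0.111 in edgeR, 0.0197 in DESeq2 and 0.0923 in limma voom. Serpina3n, a secreted protease inhibitor of injured glia, had 255 to 356 CPM in Nf2 and 193 to 327 CPM in DKO mice. The log2 difference was -0.42 ± 0.13, with an adjusted p of 0.143 in edgeR, 0.0491 in DESeq2 and 0.0179 in limma voom.

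Gfap, the intermediate filament gene of non-myelinating Schwann cells, satellite glia and astrocytes, went in the opposite direction. Nf2 mice had 13.7 to 73.3 CPM and DKO mice 60.1 to 133 CPM, and only Nf2 mouse 884 lay inside the DKO range. The log2 difference was 1.22 ± 0.29 (SE), with an adjusted p of 0.0700 in edgeR, 0.00159 in DESeq2 and 0.0385 in limma voom. Summed spinal cord glia markers, which could bring in Gfap, had 21.9 to 121 CPM in Nf2 and 36.7 to 177 CPM in DKO mice, and their part in the Gfap level was not tested.

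The 10 injury genes of sensory neurons linked to gp130 cytokines included 8 with enough reads, 3 higher and 5 lower in DKO mice (median -0.04). Atf3, the transcription factor of axotomised neurons, had 33.3 to 38.5 CPM in Nf2 and 23.3 to 36.1 CPM in DKO mice (log2 difference -0.26 ± 0.10, unadjusted p = 0.0220, adjusted p = 0.236 in edgeR). The neuropeptide gene Npy had 1.06 ± 0.634 CPM in Nf2 and 1.53 ± 0.833 CPM in DKO mice.

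**Figure D5:**
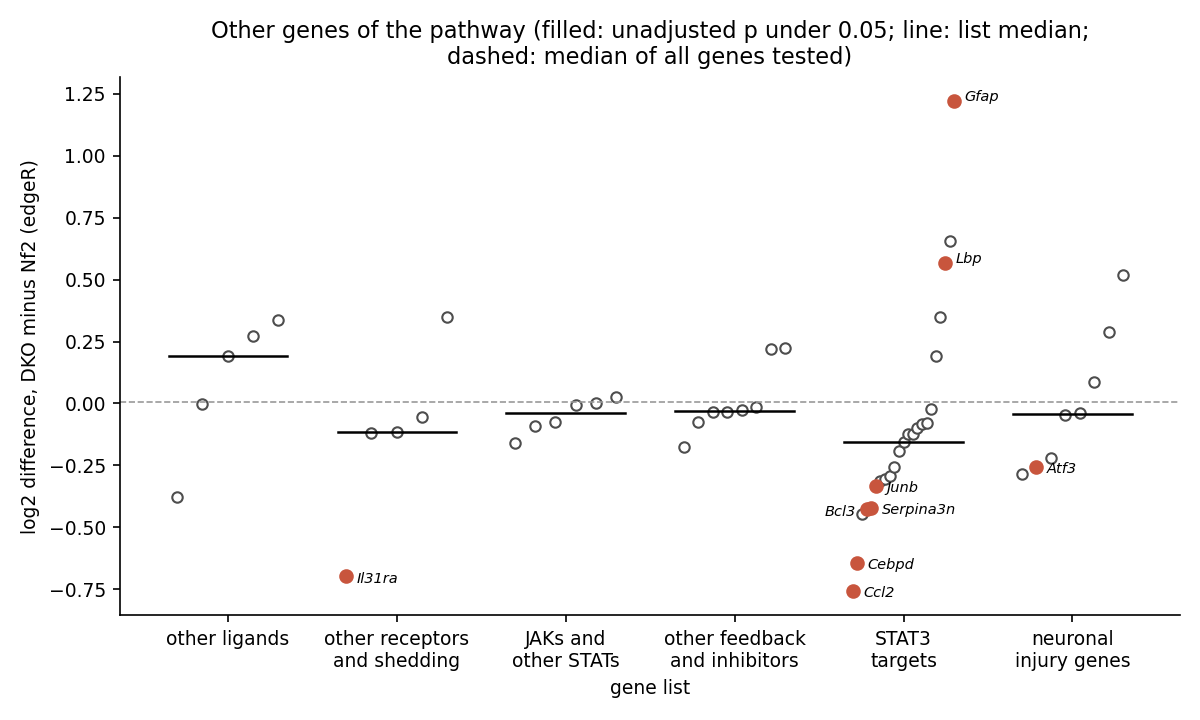
The y axis gives the log2 difference of DKO minus Nf2 from edgeR for the 55 tested genes of the 6 lists on the x axis, with filled and named points at an unadjusted p under 0.05, a line at each list's median and a dashed line at the median of all genes tested. The 9 filled points include 7 STAT3 targets, of which Gfap (1.22) is the farthest from 0.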

How the data were processed

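The labels give genotype, labelled sex and mouse number, and each mouse was 1 replicate. The authors deposited raw read counts per Ensembl gene. Per the submitters' processing notes the tools were Trimmomatic 0.36, STAR 2.5.2b and featureCounts of Subread 1.5.2 on GRCm38, and the strand setting is not given in the sources used here. The 174 rows with an identifier but no symbol were kept as genes. Of all genes, 99.5% were in GENCODE M21, which gave coordinates and exon lengths. Promoter windows came from RefSeq on GRCm38.p6. Protein sequences were not used here.

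The counts were tested with edgeR 4.0.16 in R 4.3.3 (filterByExpr, TMM factors of 0.977 to 1.02, quasi-likelihood F test on genotype, 12 mice, no covariates) with Benjamini-Hochberg adjustment at 0.05 over all 18295 tested genes. The fit for labelled sex had genotype as a second term, and a further fit added their interaction. SEs were derived from the F statistic. Il6, which did not pass the filter, was tested on log2(CPM + 4) by exact permutation. Alternatives used DESeq2 1.42.0, limma 3.58.1, other scaling and filters, and fewer mice. The genotype fits of edgeR, DESeq2 and limma were also tested on simulated counts. The fits for sex and interaction, other scaling and filters, and fewer mice were not. Figures were made in Python 3.11.15 with matplotlib 3.10.9.

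The 10 members and the gene lists were chosen with earlier results of these data known. Named were all members, list genes past the threshold and the 2 with the smallest p per list, the genes most like each member, checks of the labels, and overlapping genes. The list genes at an unadjusted p under 0.05, Osm, Il31 and Jak1 were named after their values were seen.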

Additional observations from a re-analysis of the deposited data

Results flagged for a closer look

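In 22 groups of 6 mice, covering the mitochondrial share and the 10 members in each genotype, 1 value stood apart from the rest of its group by the gap test of Dixon (about 1.1 such values are given by chance). The mitochondrial share of DKO mouse 887 was 5.60%, against 2.52% in the next DKO mouse. In this mouse Socs3 (28.7 CPM), Cntfr (69.1 CPM) and Lifr (447 CPM) were the highest and Il6st (471 CPM), Stat3 (266 CPM), Cntf (14.4 CPM) and Il6ra (10.6 CPM) the lowest of the DKO group. No member's own values were flagged in either genotype.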

How the results depend on the processing

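The number of members called stayed at 0 in every comparison under each alternative run. Of 613 alternative values, 552 kept their direction and side of the threshold, and the values that did not are given here; their causes were not tested. Genes called between genotypes (172) numbered 831 with DESeq2, 521 with limma voom, 2 in labelled males, 57 in labelled females, 314 without mice 649 and 887 (added after the data were seen) and 81 (without mouse 918) to 217 when 1 mouse was left out, falling by over 1.5 times also without 702 (114), 884 (111), 1049 (98), 914 (109), 917 (87) or 885 (95). Genes called by labelled sex (3) numbered 5 with DESeq2, 10 without mouse 702 and 0 without any other mouse. Interaction calls (2) numbered 20 with DESeq2 and 2 to 6 with 1 mouse left out. Pathway list genes called (0) numbered 4 with DESeq2, 2 with limma voom, 1 (Gfap, adjusted p = 0.0320 in edgeR) without mice 649 and 887, and 0 to 1 with 1 mouse left out, again Gfap, without 649 or 884.

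Small genotype differences changed sign. Cntf was 0.00503 without scaling, 0.13 in labelled males, 0.0396 without mice 649 and 887, and -0.10 to 0.0796 with 1 mouse left out. Il6ra ranged from -0.0027 to 0.19 with 1 mouse left out. Il6st was 0.0464 in labelled males. Lifr was 0.0660 in labelled females and -0.0923 to 0.0165 with 1 mouse left out. Stat3 was -0.0123 with limma voom, -0.0038 in labelled males and -0.0215 to 0.0707 with 1 mouse left out. By labelled sex, leaving 1 mouse out gave -0.0631 to 0.17 for Cntf, -0.0895 to 0.0411 for Osmr and -0.0724 to 0.0642 for Cntfr, and the Stat3 interaction ranged from -0.18 to 0.0417. Socs3 stayed between -0.49 and -0.29, with an adjusted p of 0.0547 (without 887) to 0.394 in edgeR. No paired analysis was possible because the mouse numbers are not shared between genotypes. Depth left Il6 and 6 of the 61 pathway genes (Osm, Ctf2, Il27, Il31, Vip and Reg3b) untested.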
